A study of Homo sapiens
Mus musculus with 8 samples.

Results

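The genes described here are 5 transcription factors that set up and hold the T cell programme, measured in both species of a mixed sample: Tcf7, Lef1, Sox4, Gata3 and Bcl11b in mouse cells and TCF7, LEF1, SOX4, GATA3 and BCL11B in human cells. They were chosen by name, with earlier results of these data known, and make up 10 of the 60736 genes in the count matrices. In the files the mouse genes are ENSMUSG00000000782 (Tcf7), ENSMUSG00000027985 (Lef1), ENSMUSG00000076431 (Sox4), ENSMUSG00000015619 (Gata3) and ENSMUSG00000048251 (Bcl11b). The human genes are ENSG00000081059 (TCF7), ENSG00000138795 (LEF1), ENSG00000124766 (SOX4), ENSG00000107485 (GATA3) and ENSG00000127152 (BCL11B).

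TCF7 and LEF1 carry an HMG box, a DNA-binding fold, and act with β-catenin as the nuclear end of Wnt signalling. TCF7 is switched on by Notch in the thymus, where it opens the T cell programme, and LEF1 has overlapping functions with it. SOX4 is an HMG-box factor of the SOX family that is expressed in lymphoid progenitors. GATA3 and BCL11B bind DNA through zinc fingers: GATA3 acts at the first thymic steps and later in CD4 cells, and BCL11B closes the commitment step. Developing B cells use other factors, among them EBF1 and PAX5.

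The study mixed 4 lymphocyte lines in equal parts and profiled the mixture as single cells with the 10x Genomics Chromium 3′ v2, 5′ v1 and 3′ v3 kits. The 7 libraries used here are 1 of 3′ v2, 2 of 5′ v1 (replicates 1 and 2) and 4 of 3′ v3 (replicates 1 to 4). EL4 is a mouse T lymphoma line labelled as CD4 T cells, and IVA12 is a mouse line labelled as B cells. Jurkat is a human T leukaemia line labelled as CD4 T cells. TALL-104 is a human T leukaemia line labelled as CD8 T cells, kept in interleukin-2, and its cells are small. None of the lines was treated, each line is a single established culture and not primary tissue, and every library held all of them. Both 5′ v1 libraries came from a single cell preparation, as the study's supplement has it, and the 3′ v2 library from another. The 3′ v3 libraries came from a pair of others: replicates 1 and 3 shared one and replicates 2 and 4 shared the other. Kit and preparation therefore cannot be told apart for 5′ v1 and 3′ v2, and all p-values below measure the spread between libraries.

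A cell was a barcode with at least 1000 UMIs (unique molecular identifiers, each counting 1 captured RNA molecule), over 80% of them from 1 species. Mouse cells were EL4 where the summed UMIs of Lgals1, S100a6 and Perp were at least 5 times those of Epcam, Cd24a, Ctss and Ckap4, and IVA12 in the reverse case. Human cells were TALL-104 where NKG7, CST7 and CD8A held at least 0.1% of the UMIs, and Jurkat where they held under 0.02%. The rule used none of the 10 factors. It gave 10905 EL4, 5829 IVA12, 8105 Jurkat and 2666 TALL-104 cells.

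The libraries held between 24790710 and 251164949 UMIs each. They aimed at 2000 to 6000 cells, and 1013 to 13415 barcodes reached 1000 UMIs. TALL-104 was the shallow line, with a median of 1929 to 2762 UMIs per cell in the 7 libraries against 10075 to 18522 in Jurkat and 22812 to 27969 in EL4, and only 41, 70 and 30 TALL-104 cells in the 3′ v2 and the 2 5′ v1 libraries. The summed level of 8 T cell markers was 2050 to 2948 CPM (UMIs of the gene scaled to 1000000 UMIs of the cell's own species, summed over the cells of a line in a library) in EL4 and 4.91 to 48.2 CPM in IVA12, and 7 such markers summed to 2415 to 3154 CPM in Jurkat and 2830 to 3632 CPM in TALL-104. The 8 B cell markers summed to 423 to 629 CPM in IVA12, nearly all of it Cd79b, Ms4a1 and Cd74, while Pax5 was at 0.305 to 0.546 CPM. The coreceptor of the CD4 label was almost absent: Cd4 reached at most 0.220 CPM in EL4, and CD4 lay between 0.774 and 3.74 CPM in Jurkat. In the 3′ v3 replicates 2 and 4, Jurkat cells had 10.7% and 10.6% mitochondrial UMIs against 3.04% to 6.36% in the other libraries. Any 2 libraries shared at most 24 cell barcodes. In such sums, fewer cells with a transcript and less of it per cell cannot be told apart.

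In the mouse, all 5 factors were T line genes in these libraries: each was expressed in EL4 and close to nothing was counted in IVA12. Tcf7 was at 468 CPM in EL4 in the 3′ v2 library, at 344 and 357 CPM with 5′ v1, and at 474, 685, 401 and 647 CPM in the 4 3′ v3 replicates in order. In IVA12 the corresponding Tcf7 levels were 5.18, 1.21, 0.909, 3.94, 3.998, 10.1 and 8.01 CPM. The lines did not overlap, and the 2 5′ v1 libraries were lowest in both.

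Lef1, the partner of Tcf7, was at 10.9 CPM in EL4 with 3′ v2, at 15.7 and 12.2 CPM with 5′ v1, and at 10.8, 12.9, 9.74 and 13.3 CPM with 3′ v3. IVA12 gave 25 Lef1 UMIs in all 7 libraries together, with a median level of 0.0894 CPM and a highest level of 0.323 CPM. Of the 2 IVA12 sums with no Lef1 UMI, 3 counts would be 1.04 CPM in the 3′ v2 library and 0.125 CPM in the first 5′ v1 library. Lef1 was thus present in EL4 at a low level in every library and at or near the counting limit in IVA12.

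Sox4 ran from 90.0 CPM (3′ v2) through 90.7 and 92.4 CPM (5′ v1) to 133, 162, 116 and 156 CPM (3′ v3) in EL4, with no overlap between 5′ v1 and 3′ v3. Its IVA12 levels lay between 0.182 and 1.95 CPM, with a median of 0.537 CPM.

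The zinc-finger factors showed the same contrast. Gata3 in EL4 was 60.5 CPM with 3′ v2, 83.2 and 94.6 CPM with 5′ v1, and 114, 102, 91.5 and 104 CPM with 3′ v3, against 0 to 2.26 CPM in IVA12 (0 UMIs with 3′ v2, where 3 counts would be 1.04 CPM). Bcl11b in EL4 was 80.3 CPM with 3′ v2, 101 and 105 CPM with 5′ v1, and 82.1, 158, 74.1 and 158 CPM with 3′ v3, against 0.0836 to 1.87 CPM in IVA12. For Bcl11b the 3′ v3 libraries split into replicates 1 and 3 below the 5′ v1 libraries and replicates 2 and 4 above them.

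UMI counts were summed per library and line, and the lines were compared with edgeR's quasi-likelihood test with the library as a block, with Benjamini-Hochberg adjustment over all genes tested. All 5 factors passed an adjusted p of 0.05 and were higher in EL4, in a comparison where 39% of the 13179 mouse genes tested were higher in EL4 and 38% higher in IVA12. The log2 fold change was 6.98 ± 0.40 (SE) for Tcf7 (edgeR adjusted p = 1.17e-07), which is 126-fold. For Lef1 it was 6.42 ± 0.36 (edgeR adjusted p = 5.08e-08), or 85.7-fold. Sox4 differed by 7.13 ± 0.33 on the log2 scale (edgeR adjusted p = 2.33e-08), or 140-fold. The values were 6.86 ± 0.44 for Gata3 (edgeR adjusted p = 2.63e-07) and 7.23 ± 0.38 for Bcl11b (edgeR adjusted p = 7.12e-08), or 116-fold and 150-fold. Their median log2 fold change was 6.98, against 0.0037 over all genes tested, a median that moved to −0.114 with total UMIs as the only scaling. The IVA12 medians under these folds were 3.998 CPM for Tcf7, 0.0894 for Lef1, 0.537 for Sox4, 0.805 for Gata3 and 0.492 for Bcl11b. Sizes over such low levels, whose part of free RNA was not tested, are not exact line differences. With the 3′ v3 replicates 1 and 3 alone, a fit on few libraries, Tcf7 kept its direction (5.98) but not its call (edgeR adjusted p = 0.0586). Over 20 alternatives the log2 fold change ran from 5.98 to 8.49 for Tcf7, 5.43 to 8.92 for Lef1, 6.52 to 8.65 for Sox4, 5.93 to 10.63 for Gata3 and 6.51 to 10.33 for Bcl11b, each highest with 5′ v1 only, where IVA12 had 0 to 2 UMIs of Lef1, Gata3 and Bcl11b in each library, so that their highest values are fitted over 1 to 3 counts.

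**Figure D1:**
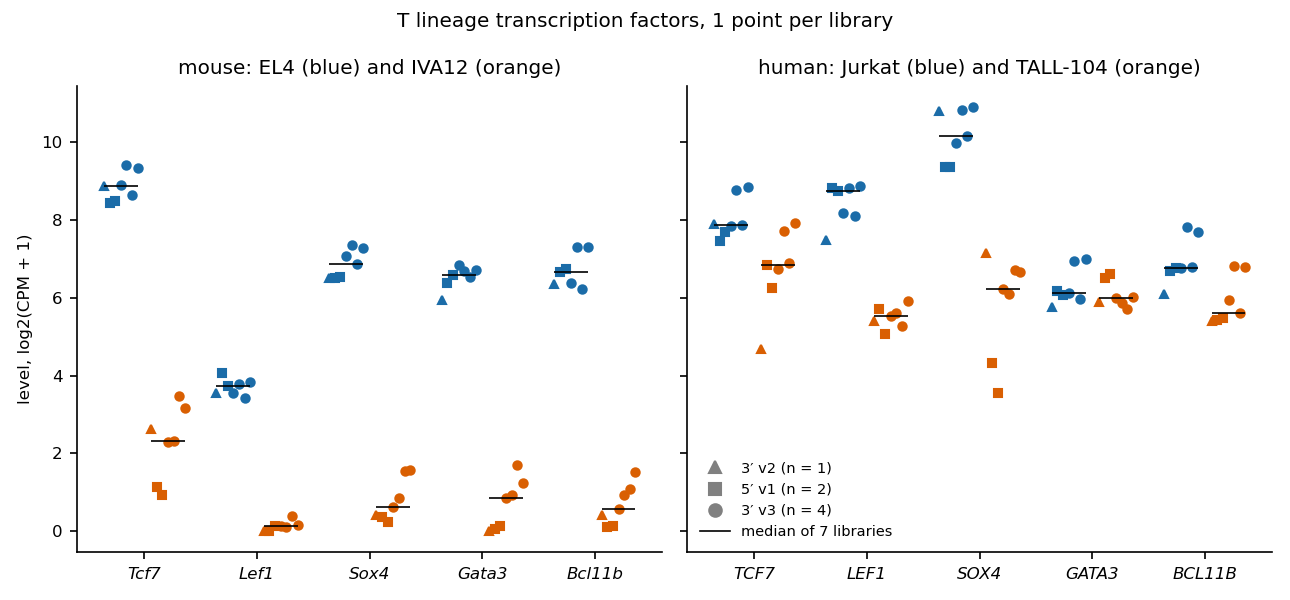
Level of each factor as log2(CPM + 1) in the cells of a line, 1 point per library (triangle 3′ v2, squares 5′ v1, circles 3′ v3), with the median of 7 libraries as a line; EL4 and Jurkat are blue, IVA12 and TALL-104 orange. The mouse lines do not overlap for any factor, whereas the human lines overlap for GATA3, TCF7 and BCL11B, and SOX4 and LEF1 lie apart.

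The few UMIs of the factors in IVA12 were set against free RNA, measured in barcodes with under 100 UMIs, where no cell is expected. The IVA12 level was 0.317% to 9.45% of the free RNA level for Tcf7, 0% to 6.07% for Lef1, 0.861% to 4.55% for Sox4, 0% to 4.87% for Gata3 and 0.314% to 6.49% for Bcl11b. From the human UMIs pooled over IVA12 cells, the share of free mouse RNA expected in those cells was 0.275% to 11.7%. The pool also counts mixed barcodes. Human UMIs made up 0.533% of the pool but 0.220% in the median cell of 3′ v3 replicate 2, and 0.824% against 0.378% in replicate 4. A share from the median cell would be lower there and leave more levels above it. Library by library, 27 of the 35 IVA12 levels were at or below the pooled share and 8 above it. Of these 8, 3 were in 3′ v3 replicate 3, where 2.75% was expected: Tcf7 (4.33%), Gata3 (4.38%) and Lef1 (6.07%). The other 5 were in the 5′ v1 libraries, on 1 to 10 UMIs each. They were Sox4 in replicate 1 (1.62% against 0.784%) and Tcf7, Lef1, Bcl11b and Sox4 in replicate 2 (0.314% to 0.861% against 0.275%). No IVA12 cell had more than 5 UMIs of a factor. The shares of IVA12 cells with a UMI were 2.19% to 24.4% for Tcf7, at a median of 10871 to 30958 mouse UMIs per cell. In human cells, which cannot express the mouse gene, the shares were 0.750% to 14.8%, at a median of 4581 to 18188 UMIs of both species together. The part of free RNA in the IVA12 levels was not tested further.

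**Figure D2:**
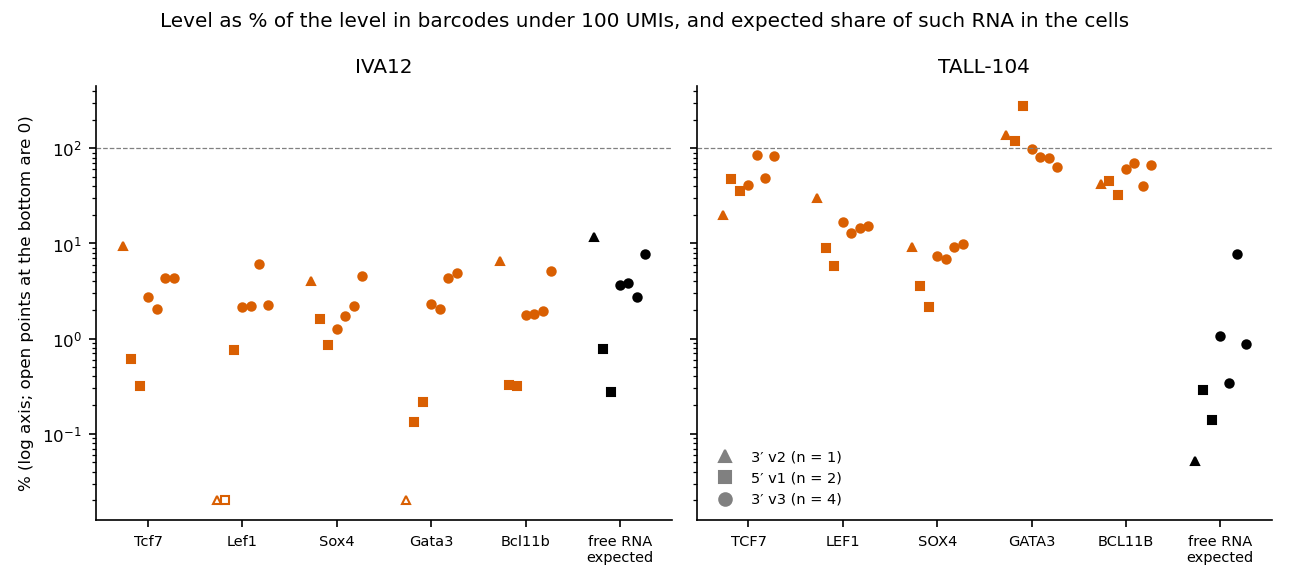
Level of each factor in IVA12 (left) and TALL-104 (right) as a percentage of its level in barcodes with under 100 UMIs, on a log axis with 1 point per library and open points for 0; black points give the share of free RNA expected in the cells from the UMIs of the other species. In IVA12 the factors lie at 0% to 9.45% and the black points, from UMIs pooled over cells, at 0.275% to 11.7%. There 8 of 35 levels lie above the black point of their own library, a count that would rise with the median cell in place of the pool. In TALL-104 GATA3 lies at 64.3% to 280% and SOX4 at 2.16% to 9.94%.

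Both human lines are T lines, and the 5 factors did not move together between them. TCF7 in Jurkat was 237 CPM with 3′ v2, 177 and 206 CPM with 5′ v1, and 229, 436, 233 and 463 CPM with 3′ v3. TALL-104 gave 24.9 CPM from 3 UMIs with 3′ v2, 113 and 75.9 CPM with 5′ v1, and 107, 210, 119 and 241 CPM with 3′ v3. TALL-104 was lower within every library, although the ranges over all libraries overlapped. Its TCF7 level was 10.5% to 64.0% of that in Jurkat cells of the same library, with a median of 48.2%.

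LEF1 in Jurkat was 179 CPM with 3′ v2, 453 and 428 CPM with 5′ v1, and 290, 452, 273 and 468 CPM with 3′ v3. The TALL-104 levels were 41.5, 51.9, 32.5, 45.7, 48.0, 37.5 and 59.7 CPM in the same order of libraries. LEF1 did not overlap between the lines. Its level in TALL-104 was 7.60% to 23.2% of the Jurkat level.

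SOX4 separated the human lines most among the 5. Jurkat had 1795 CPM with 3′ v2, 661 and 664 CPM with 5′ v1, and 1016, 1810, 1147 and 1916 CPM with 3′ v3. TALL-104 had 141 CPM from 17 UMIs with 3′ v2, 18.9 and 10.8 CPM from 4 UMIs and 1 UMI with 5′ v1, and 73.8, 67.5, 105 and 101 CPM from 92, 45, 221 and 146 UMIs with 3′ v3. Every Jurkat library was above every TALL-104 library. The TALL-104 level was 1.63% to 9.15% of the Jurkat level in the same library.

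GATA3 differed between the lines in a direction that changed with the library. Jurkat had 53.9 CPM with 3′ v2, 71.1 and 66.9 CPM with 5′ v1, and 69.0, 122, 61.2 and 127 CPM with 3′ v3. TALL-104 had 58.1, 89.7, 97.6, 63.4, 57.0, 51.3 and 64.6 CPM. TALL-104 was the higher line with 3′ v2 and 5′ v1 and the lower one in all 4 3′ v3 libraries. BCL11B in Jurkat was 67.8 CPM with 3′ v2, 103 and 108 CPM with 5′ v1, and 108, 227, 110 and 207 CPM with 3′ v3. In TALL-104 it was 41.5, 42.5, 43.4, 60.2, 111, 47.5 and 110 CPM, lower than Jurkat in every library.

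In the same test over 12178 human genes, 4 of the 5 factors were higher in Jurkat, where 36.8% of all genes tested were higher in Jurkat and 30.3% higher in TALL-104. SOX4 differed by 4.08 ± 0.21 on the log2 scale (edgeR adjusted p = 4.60e-19), or 17.0-fold. LEF1 differed by 2.89 ± 0.18 (edgeR adjusted p = 3.42e-17), or 7.44-fold. TCF7 and BCL11B were 2.14-fold and 1.96-fold higher in Jurkat, with log2 fold changes of 1.10 ± 0.18 (edgeR adjusted p = 2.78e-06) and 0.97 ± 0.16 (edgeR adjusted p = 2.07e-06). GATA3 did not pass (0.32 ± 0.17, edgeR adjusted p = 0.101). The median over the 5 was 1.10, against 0.11 over all genes tested, a median that was 0.59 without the filter on low counts.

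The GATA3 comparison turned on the libraries. With 5′ v1 alone its log2 fold change was −0.38 (edgeR adjusted p = 0.414), and with the 3′ v3 replicates 2 and 4 alone it was 1.03 (edgeR adjusted p = 3.79e-15). Each of these fits rests on 2 libraries, which give little measure of the spread between libraries. Without the 3′ v2 library GATA3 passed at 0.42 (edgeR adjusted p = 0.0445), and with the 4 3′ v3 libraries alone it passed at 0.45 (edgeR adjusted p = 0.0446). It also passed without the filter on low counts (0.46), with a minimum of 2000 UMIs per cell (0.47) and with the stricter rule for lines (0.74). The other 4 factors kept their direction and their call under all 20 alternatives tried, with ranges of 3.40 to 5.35 for SOX4, 2.62 to 3.68 for LEF1, 0.86 to 1.31 for TCF7 and 0.84 to 1.57 for BCL11B.

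The UMIs that TALL-104 had of SOX4 were held by few cells. In the 4 3′ v3 libraries together, 504 SOX4 UMIs were counted in 2525 TALL-104 cells, and 51 cells with at least 3 SOX4 UMIs held 348 of them, or 69.0%. By library the share was 67.4% in 10 cells, 88.9% in 5 cells, 53.8% in 20 cells and 87.0% in 16 cells. In the 3′ v2 library 1 cell held 15 of the 17 SOX4 UMIs. For LEF1, 17 cells held 35.04% of its 3′ v3 UMIs. The shares were lower for TCF7 (15.96% in 41 cells) and BCL11B (15.2% in 16 cells), and 4.72% for GATA3 (5 cells). SOX4 UMIs in TALL-104 thus sat in a small number of barcodes, while those of GATA3 were spread over many.

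The cells with at least 3 SOX4 UMIs had more RNA than the line as a whole: their median was 3072 to 5822 human UMIs in the 4 3′ v3 libraries, against 1792 to 2558 for all TALL-104 cells of the same libraries. A cell with more UMIs also has more chances to reach 3. With TALL-104 cells ordered by UMIs and split into 3 equal bins, SOX4 was at 116, 147, 144 and 197 CPM in the highest bin of 3′ v3 replicates 1 to 4, and at 0 to 79.7 CPM in the lower bins. Without the cells above 3 times the median of their line and library, SOX4 in replicate 2 fell from 67.5 to 32.4 CPM, and the Jurkat to TALL-104 difference of SOX4 was 4.45 on the log2 scale. The rule for TALL-104 asks for cytotoxic genes and not for the absence of Jurkat RNA, so barcodes that held a cell of each human line could enter it. No doublet caller was run, and the part of such barcodes in these values was not tested. A stricter rule, which asked for cytotoxic genes at 0.5% of the UMIs, left 4 to 129 TALL-104 cells per library. SOX4 then had 0 UMIs in 4 of the 7 libraries and 54.3 to 103 CPM in the other 3, and its difference from Jurkat was 4.96 on the log2 scale.

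**Figure D3:**
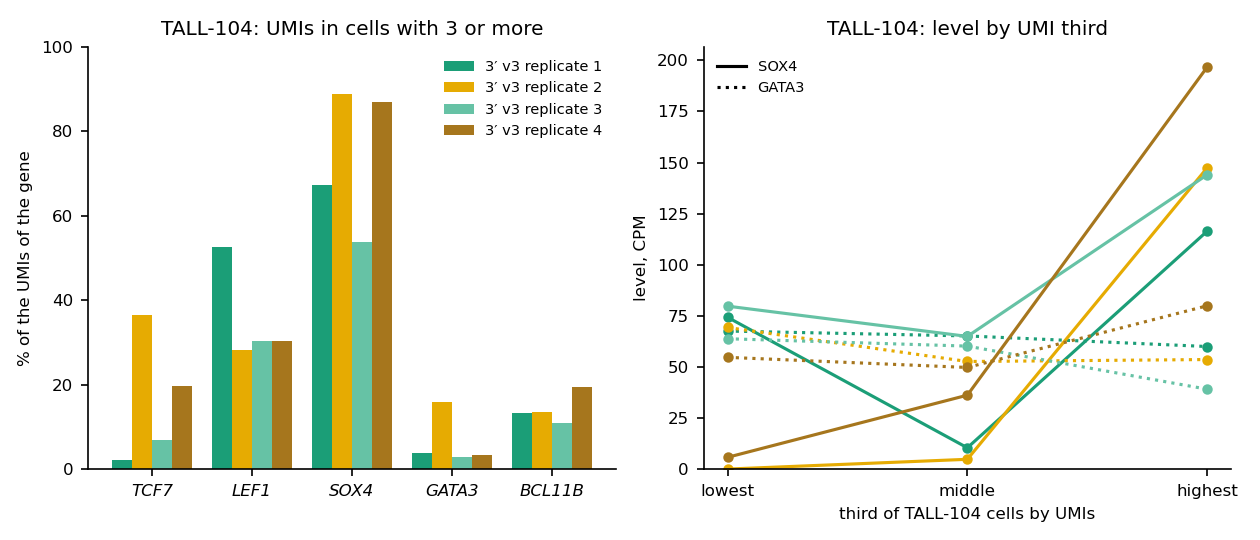
TALL-104 cells of the 4 3′ v3 libraries. Left, bars give the percentage of the UMIs of each factor found in cells with at least 3 of them; right, SOX4 (solid) and GATA3 (dotted) levels in CPM in 3 equal bins of cells by UMIs (lowest, middle, highest), in the colours of the bars. SOX4 stands at 53.8% to 88.9% on the left and is highest in the highest bin in each library (116 to 197 CPM), while GATA3 stands at 2.78% to 15.8%.

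Against free RNA the TALL-104 factors differed from each other much as they did against Jurkat. Free human RNA held SOX4 at 502 to 1544 CPM, against 661 to 1916 CPM in Jurkat, so this is not a separate result. The TALL-104 level was 64.3% to 280% of the free RNA level for GATA3, 32.3% to 69.6% for BCL11B, 19.9% to 85.7% for TCF7, 5.84% to 29.8% for LEF1 and 2.16% to 9.94% for SOX4. The share of free human RNA expected from mouse UMIs in TALL-104 cells was 0.0517% to 7.74%, the highest value being that of 3′ v3 replicate 3, where 14.3% of the UMIs in TALL-104 cells were mouse. All 5 factors lay above the expected share in all 7 libraries. SOX4 was nearest to it in that replicate, at 9.27% against 7.74%, and lay further above it in the others, such as 7.42% against 1.06%, 6.89% against 0.344% and 9.94% against 0.874% in 3′ v3 replicates 1, 2 and 4. With 5′ v1 the SOX4 level rested on 4 UMIs and 1 UMI. In 3′ v3 replicate 3, 20 cells with at least 3 SOX4 UMIs held 119 of its 221 UMIs. The part of mixed barcodes in these levels was not tested, so they do not place SOX4 in TALL-104 above background.

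Detection in single cells was compared at a common depth. Thinned to 1000 UMIs per cell, the share of cells with a UMI was 27.6% to 48.1% for Tcf7, 8.33% to 15.3% for Sox4, 6.26% to 9.84% for Gata3, 6.23% to 15.2% for Bcl11b and 0.872% to 1.56% for Lef1 in EL4. In IVA12 none exceeded 1.15%. Without thinning the EL4 shares were 72.3% to 98.3% for Tcf7 and 15.4% to 26.2% for Lef1. Thinned to 5000 UMIs, 92.8% to 99.0% of EL4 cells and 99.4% to 99.99% of Jurkat cells had a UMI of at least 1 of the 5, against 0.585% to 7.93% of IVA12 cells. Most of this was 1 gene in each line: at the same depth Tcf7 alone was found in 76.6% to 94.2% of EL4 cells, against 4.81% to 7.54% for Lef1, and SOX4 alone in 90.3% to 99.1% of Jurkat cells. These shares cover only cells with at least 5000 UMIs.

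In Jurkat the thinned shares at 1000 UMIs were 44.4% to 77.5% for SOX4, 15.8% to 36.1% for LEF1, 16.2% to 36.2% for TCF7, 6.57% to 20.4% for BCL11B and 4.94% to 11.6% for GATA3. In TALL-104 they were 1.17% to 5.72% for SOX4, 2.36% to 5.49% for LEF1, 4.18% to 21.3% for TCF7, 3.005% to 10.4% for BCL11B and 4.21% to 10.3% for GATA3. The background was the share of mouse cells with a UMI of the human gene, which was 0.169% to 17.5% for SOX4, 0.169% to 12.3% for LEF1, 1.73% to 11.2% for TCF7 and at most 3.01% for BCL11B and 2.18% for GATA3. Mouse cells had a median of 24103 to 27881 UMIs of both species together and TALL-104 cells 1792 to 2686 human UMIs. The unthinned SOX4 share in TALL-104 was below the mouse share in each of the 4 3′ v3 libraries (3.70% to 9.62% against 5.68% to 17.5%), so those 4 shares alone do not show expression above background. It was above the mouse share with 3′ v2 (7.32% against 3.62%) and with 5′ v1 (4.29% and 3.33% against 1.02% and 0.169%). These shares are 3 of 41, 3 of 70 and 1 of 30 TALL-104 cells, too few to place SOX4 against background. The unthinned LEF1 share in TALL-104 was below the mouse share in 3′ v3 replicate 3 (5.14% against 12.3%) and close to it in replicate 1 (4.71% against 4.39%), and above it in the other 5 libraries. With 3′ v2 and 5′ v1 it rested on 4 of 41, 10 of 70 and 3 of 30 TALL-104 cells.

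Kits were compared within a line, 3′ v3 (n = 4) against 5′ v1 (n = 2), with the single 3′ v2 library as a further level that has no replicate. The question is whether the kit changes what is seen of the factors. Sox4 and SOX4 passed the test in all 3 T lines, with higher levels in 3′ v3. The log2 fold change was 0.56 ± 0.14 in EL4 (edgeR adjusted p = 0.0197), 1.05 ± 0.27 in Jurkat (edgeR adjusted p = 0.0378) and 2.53 ± 0.55 in TALL-104 (edgeR adjusted p = 0.0151), or 1.47-fold, 2.07-fold and 5.79-fold. As mean levels this was 142 ± 21.1 CPM (SD, n = 4) against 91.6 ± 1.21 (n = 2) in EL4, 1472 ± 457 against 662 ± 2.08 in Jurkat and 86.9 ± 19.0 against 14.9 ± 5.69 in TALL-104. It was 1 of 5 factors to pass in each of these lines, where 34.8%, 16.5% and 4.27% of all genes tested passed in either direction. In TALL-104, 55.3% of the calls were higher with 3′ v3, a share that was 41.3% with total UMIs as the only scaling and 68.5% without the filter on low counts.

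The SOX4 difference in TALL-104 rested on 5 UMIs in 100 cells with 5′ v1. It could not be tested under the stricter rule for the line. It missed the threshold without the cells above 3 medians (2.03, edgeR adjusted p = 0.0936). Each Sox4 or SOX4 call was lost when either 5′ v1 library was left out, with log2 fold changes of 0.57 and 0.53 in EL4, 1.10 and 0.99 in Jurkat and 3.25 and 2.30 in TALL-104. Those fits leave 1 library of 5′ v1, so only the other libraries give the spread. Leaving out 3′ v3 replicate 1 also ended the EL4 call (0.49, edgeR adjusted p = 0.0541), as did leaving out replicate 2, 3 or 4 for Jurkat (0.99, 1.09 and 0.97).

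The other factors did not pass between kits in the T lines. Tcf7 missed the threshold in EL4 at 0.57 ± 0.19 (edgeR adjusted p = 0.0521; 0.0359 without 3′ v3 replicate 3), and TCF7 did in Jurkat at 0.72 ± 0.31 (edgeR adjusted p = 0.150) and in TALL-104 at 0.84 ± 0.39 (edgeR adjusted p = 0.227). Lef1 and LEF1 had negative values in EL4 (−0.34 ± 0.16) and Jurkat (−0.35 ± 0.26). The fold change of GATA3 was −0.53 ± 0.36 in TALL-104 and 0.34 ± 0.26 in Jurkat. DESeq2 put Tcf7 in EL4 (adjusted p = 0.00809) and TCF7 in Jurkat (adjusted p = 0.0417) past the threshold.

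Set against 5′ v1 one preparation at a time, the 3′ v3 libraries gave values that depended on the preparation. Bcl11b in EL4 was lower in replicates 1 and 3 than with 5′ v1 (−0.26, edgeR adjusted p = 0.0352) and higher in replicates 2 and 4 (0.32, edgeR adjusted p = 0.00279), in fits where 64.7% and 70% of all genes tested passed in either direction. LEF1 in Jurkat passed as lower in replicates 1 and 3 (−0.49, edgeR adjusted p = 0.00202). TCF7 in Jurkat passed with both pairs of replicates, at 0.43 (edgeR adjusted p = 0.00396) and 1.02 (edgeR adjusted p = 8.00e-11). In the Jurkat fits 58.8% and 72% of all genes tested passed. These fits rest on 2 libraries on each side, and passing was common in them.

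In IVA12, 3 of the 4 factors tested passed between kits, with more UMIs in 3′ v3, where 8.34% of all genes tested passed. Tcf7 had 29 and 10 UMIs with 5′ v1 and 88, 49, 565 and 201 with 3′ v3 (log2 fold change 2.64 ± 0.57, edgeR adjusted p = 0.0380). Gata3 had 1 UMI in each 5′ v1 library and 18, 11, 126 and 34 with 3′ v3 (edgeR adjusted p = 0.0302), and Bcl11b had 2 and 1 against 11, 11, 62 and 47 (edgeR adjusted p = 0.0347). For Gata3 and Bcl11b no fold is given over these counts. Both passed the filter on low counts only through the 3′ v3 libraries, so the count of 3 is not read against the 8.34%. Sox4 did not pass the test (2.43 ± 0.73, edgeR adjusted p = 0.0895), and Lef1 was below the filter. These are differences between levels of at most 10.1 CPM, and the share of free mouse RNA expected in IVA12 cells was higher with 3′ v3 too, at 2.75% to 7.82% against 0.784% and 0.275% with 5′ v1. All 3 calls were lost without either 5′ v1 library (2.93 and 2.47 for Tcf7). The Tcf7 and Gata3 calls were also lost without 3′ v3 replicate 4 (2.61 for Tcf7), and the Bcl11b call without replicate 2 or 3.

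The test of whether the EL4 to IVA12 difference itself differed between 3′ v3 and 5′ v1 passed for Gata3 (edgeR adjusted p = 0.0130) and Bcl11b (edgeR adjusted p = 0.00271), where 30.3% of all genes tested passed. Both calls rest on the 2 Gata3 and 3 Bcl11b UMIs that IVA12 had with 5′ v1, while the EL4 mean levels differed 1.16-fold and 1.14-fold between the kits, so no size is given for the difference. Of the genes that passed, 55.9% had a positive value, against 69.4% with total UMIs as the only scaling. Tcf7 (−2.10 ± 0.73, edgeR adjusted p = 0.0730), Lef1 (edgeR adjusted p = 0.0789) and Sox4 (−2.005 ± 0.82, edgeR adjusted p = 0.105) did not pass. No size is given for Lef1, of which IVA12 had 0 UMIs and 1 UMI in the 5′ v1 libraries. Sox4 had 7 and 2 UMIs there. Sox4 passed without 3′ v3 replicate 1 (−2.28), and Tcf7 without replicate 2 or 3 (−2.32 and −1.68). The Gata3 call was lost without either 5′ v1 library and the Bcl11b call without the first (edgeR adjusted p = 0.0748). For the Jurkat to TALL-104 difference, 0 of 5 factors passed in edgeR, 1 of them (GATA3) had an unadjusted p under 0.05, and 1.43% of all genes tested passed. GATA3 had the value nearest to passing (0.94 ± 0.41, edgeR adjusted p = 0.321) and SOX4 the most negative one (−1.38 ± 0.69, edgeR adjusted p = 0.422). Of the genes that passed, 73.4% had a positive value, against 61.1% without the filter.

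The 3′ v3 libraries allowed a look at preparations with the kit held fixed, a comparison chosen after the levels were seen. In Jurkat all 5 factors were higher in replicates 2 and 4 than in replicates 1 and 3, without overlap. As CPM the ratio was 1.95 for TCF7, 1.63 for LEF1, 1.72 for SOX4, 1.91 for GATA3 and 2.00 for BCL11B. After scaling by the trimmed mean of M-values the log2 fold changes were 0.57 ± 0.11 for TCF7 (edgeR adjusted p = 3.96e-05), 0.31 ± 0.12 for LEF1 (edgeR adjusted p = 0.0179), 0.39 ± 0.12 for SOX4 (edgeR adjusted p = 0.00395), 0.54 ± 0.11 for GATA3 (edgeR adjusted p = 3.75e-05) and 0.60 ± 0.11 for BCL11B (edgeR adjusted p = 6.81e-06). Background was high, since 61.6% of all genes tested in Jurkat passed. The LEF1 call was lost without 3′ v3 replicate 2, 3 or 4 (0.31, 0.22 and 0.28) and the SOX4 call without replicate 2 or 4 (0.41 and 0.34).

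With total UMIs as the only scaling, the median of all genes moved to 0.44 in Jurkat, 0.34 in EL4 and 0.35 in TALL-104, and 71.1%, 77.8% and 79.9% of the calls were higher in replicates 2 and 4, against 48.3%, 47.9% and 52.1% with the scaling above. Jurkat cells of replicates 2 and 4 had a median of 10913 and 10075 UMIs, against 17444 and 17903 in replicates 1 and 3, and the higher mitochondrial shares given above. Within cells of over 5% to 10% mitochondrial UMIs the CPM ratios were 1.73 to 2.15, and within each of 3 equal bins of cells by UMIs they were 1.57 to 2.24, with no overlap between the pairs of libraries for any of the 5 factors. The bins by UMIs were cut inside each library, so they do not match depth between the pairs of libraries. These ratios are of CPM and so carry the shift of all genes seen with total UMIs as the only scaling. The cause of the difference between preparations was not tested.

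In EL4, Bcl11b was higher in replicates 2 and 4 (0.65 ± 0.08, edgeR adjusted p = 0.000101) and Gata3 was lower (−0.36 ± 0.10, edgeR adjusted p = 0.0124). These were 2 of 5 factors, where 54.8% of all genes tested passed. With total UMIs as the only scaling, 4 of the 5 passed as higher in replicates 2 and 4. In that fit 77.8% of the calls over all genes were higher there too, and the median of all genes was 0.34. The log2 fold changes were 0.61 for Tcf7, 0.36 for Lef1, 0.35 for Sox4 and 1.02 for Bcl11b, and that of Gata3 was 0.0042 (edgeR adjusted p = 0.978). The Gata3 call was lost without 3′ v3 replicate 2 or 4, fits that leave 1 library on that side. In TALL-104, TCF7 (0.69 ± 0.16, edgeR adjusted p = 0.000121) and BCL11B (0.75 ± 0.19, edgeR adjusted p = 0.000504) were higher in replicates 2 and 4, where 39.3% of all genes tested passed. BCL11B missed the threshold without 3′ v3 replicate 3 (0.55, edgeR adjusted p = 0.0504). Under the stricter rule for the line TCF7 did not pass (0.41, edgeR adjusted p = 0.439) and BCL11B was not tested. SOX4 (−0.36 ± 0.18, edgeR adjusted p = 0.106) passed without replicate 1 or 4 (−0.49 and −0.71), and Tcf7 in EL4 (0.25 ± 0.10, edgeR adjusted p = 0.0625) passed without either 5′ v1 library or without 3′ v3 replicate 1 (0.24, 0.24 and 0.30). BCL11B and Bcl11b thus passed with the same sign in all 3 T lines, while the CPM ratio of SOX4 was 0.945 in TALL-104 and 1.72 in Jurkat. The cells of all lines shared these libraries, so the lines are not independent looks at a preparation.

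**Figure D4:**
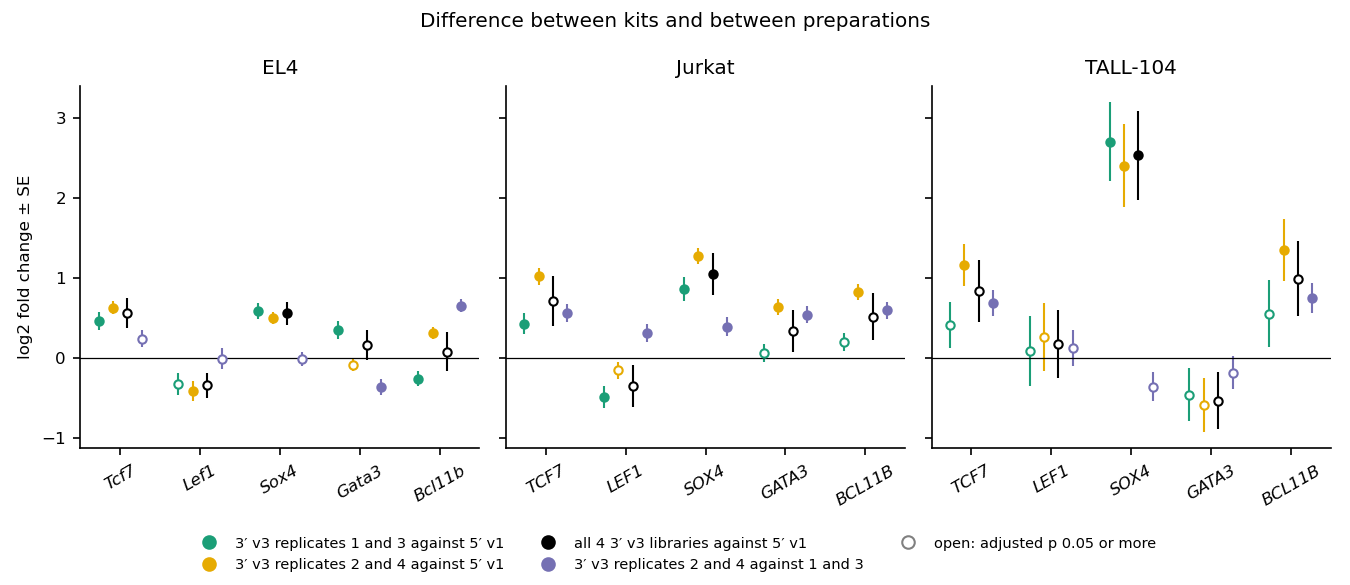
Log2 fold change ± SE of each factor in EL4, Jurkat and TALL-104: 3′ v3 replicates 1 and 3 (green) and 2 and 4 (yellow) against 5′ v1, all 4 3′ v3 libraries against 5′ v1 (black), and 3′ v3 replicates 2 and 4 against 1 and 3 (purple); open points did not pass an adjusted p of 0.05. Sox4 and SOX4 are the filled black points (0.56, 1.05 and 2.53), and Bcl11b in EL4 changes sign between green and yellow.

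Of 7 paralogs, close relatives of the factors, 3 were tested between EL4 and IVA12, with a median log2 fold change of −5.10 (all genes 0.0037). Tcf7l1, an HMG-box relative of Tcf7, was higher in EL4, at a median of 1.60 against 0 CPM in IVA12. Sox12 was lower in EL4 (−5.10 ± 0.36), and so was Bcl11a, at a median of 0 against 1.36 CPM. No fold is given for Tcf7l1 and Bcl11a over such counts. Tcf7l2, Sox11 and Gata2 had 0 UMIs in EL4, where 3 counts over all libraries would be 0.0124 CPM. In the human lines 4 of the 7 paralogs were tested and these 4 were higher in Jurkat (36.8% of all genes tested), with a median of 3.92 (all genes 0.11). They were BCL11A (5.66 ± 0.34, median 65.7 against 0.694 CPM), SOX11 (4.53 ± 0.34, 28.0 against 0.694 CPM), TCF7L2 (3.32 ± 0.32, 21.3 against 2.08 CPM) and SOX12 (3.04 ± 0.30, 22.7 against 2.78 CPM). The Jurkat levels sufficed to carry these 4 past the filter on low counts, so their count is not read against the 36.8%. Sizes over such low TALL-104 levels are not exact. TCF7L1 and GATA1 had 0 UMIs in TALL-104, where 3 counts would be 0.510 CPM.

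The 14 cofactors were all tested in both species, with 7 higher and 4 lower in EL4 and 3 not passing, and the same numbers for Jurkat. Over all genes tested 39% were higher in EL4 and 38% lower, and 36.8% higher in Jurkat and 30.3% lower, so these counts say little about the cofactors as a group. Their median log2 fold changes were 0.22 and 0.58. Zfpm1, which encodes the GATA partner FOG1, was higher in EL4 (4.72 ± 0.14, median 102 against 4.38 CPM), as was Aes (2.02 ± 0.16), a short Groucho-family protein that binds TCF factors. Tle1, a Groucho corepressor, was lower in EL4 (−5.62 ± 0.32, median 0.359 against 23.0 CPM). Between the human lines MTA2 (1.69 ± 0.19), of the NuRD complex, was the cofactor furthest up in Jurkat and BCL9L (−2.22 ± 0.22), which links β-catenin to its coactivators, the one furthest down.

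Of 21 other regulators of T cell development, 19 were tested in the mouse, with 13 higher and 5 lower in EL4 (39% and 38% of all genes tested) and a median of 1.54. The zinc-finger factor Ikzf2 (7.71 ± 0.46, median 306 against 1.52 CPM), the HMG-box factor Tox (7.17 ± 0.43), the E-protein inhibitor Id2 (5.29 ± 0.26) and the repressor Gfi1 (5.12 ± 0.31) led the first group. Notch1 (−5.60 ± 0.40), the receptor upstream of Tcf7 in the thymus, was lower in EL4, at a median of 0.606 against 44.8 CPM. So were its target Hes1 (−4.52 ± 0.28) and the chromatin organiser Satb1 (−5.40 ± 0.34). Notch3 was also called lower in EL4, but at a median of 0 against 0.717 CPM it was barely counted in either line. Notch1 and Hes1 were thus on the side opposite to the 5 factors in the mouse.

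In the human lines 9 of the 21 regulators were higher in Jurkat, 7 lower and 5 did not pass, with a median of 0.024, and the shares over all genes tested were 36.8% higher and 30.3% lower. NOTCH3 and HES1 were higher in Jurkat, at medians of 10.9 and 9.99 CPM against 0 CPM in TALL-104, so no fold is given for them. MYB (5.33 ± 0.27, median 153 against 3.002 CPM) and the E-protein inhibitor ID3 (2.66 ± 0.20) were higher in Jurkat too. ID2 (−5.61 ± 0.27, median 5.60 against 245 CPM), TBX21 (−5.56 ± 0.35), which encodes the effector factor T-bet, ZBTB7B (−5.21 ± 0.47) and RUNX3 (−4.05 ± 0.21, median 11.5 against 250 CPM) were lower in Jurkat. ZBTB7B encodes ThPOK, known for CD4 cells, and RUNX3 is known for CD8 cells, and both were higher in the line labelled CD8.

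Among 20 T cell genes downstream, 16 were tested in the mouse and 14 were higher in EL4 (39% of all genes tested) and 2 lower (38%), with a median of 6.09. Cd3d (7.51 ± 0.59), Lat (7.23 ± 0.63), Il7r (7.06 ± 0.35) and Cd3e (6.73 ± 0.54) had the highest values. Cd6 (−4.16 ± 0.17) and Ptcra (−1.27 ± 0.25), the pre-T receptor chain, were lower in EL4. In the human lines 7 of 17 tested were higher in Jurkat, 5 were lower and 5 did not pass, with a median of 0.20 (all genes 0.11). Over all genes tested 36.8% were higher in Jurkat and 30.3% higher in TALL-104, near these shares. IL7R and PTCRA were called higher in Jurkat, at medians of 9.59 and 8.55 CPM against 0 CPM in TALL-104, so no fold is given for them. RAG2, of the recombinase, had 742 UMIs in Jurkat at a median of 4.42 CPM and 0 UMIs in TALL-104, where 3 counts would be 0.510 CPM. CD6 (−2.41 ± 0.16), CCR7 (−2.25 ± 0.38), CD3E (−0.75 ± 0.15) and CD247 (−0.67 ± 0.15) were higher in TALL-104.

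Of 10 factors of progenitors and other lineages, 7 were tested in the mouse, with a median of −5.77. Of these, 5 were higher in IVA12 (38% of all genes tested), 1 was higher in EL4 (39%) and 1 did not pass. Mef2c (−6.60 ± 0.36, median 1.26 against 160 CPM), Spi1 (−5.94 ± 0.39), Ebf1 (−5.80 ± 0.35) and Hhex (−5.77 ± 0.31) were the first 4 by size among those higher in IVA12. The B cell factor Pax5 was higher in EL4 (1.02 ± 0.28), at medians of 0.853 and 0.402 CPM. In the human lines 5 were tested, with a median of −1.83, and 1 was higher in Jurkat, 3 lower and 1 did not pass (36.8% and 30.3% of all genes tested were higher and lower). TAL1, a leukaemia-associated progenitor factor, was higher in Jurkat (4.23 ± 0.29, median 49.5 against 1.39 CPM). LMO2 (median 0 against 45.7 CPM, so no fold is given), ZBTB16 (−5.27 ± 0.20, median 3.03 against 104 CPM), which encodes PLZF, and EBF1 (−1.83 ± 0.37) were higher in TALL-104.

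**Figure D5:**
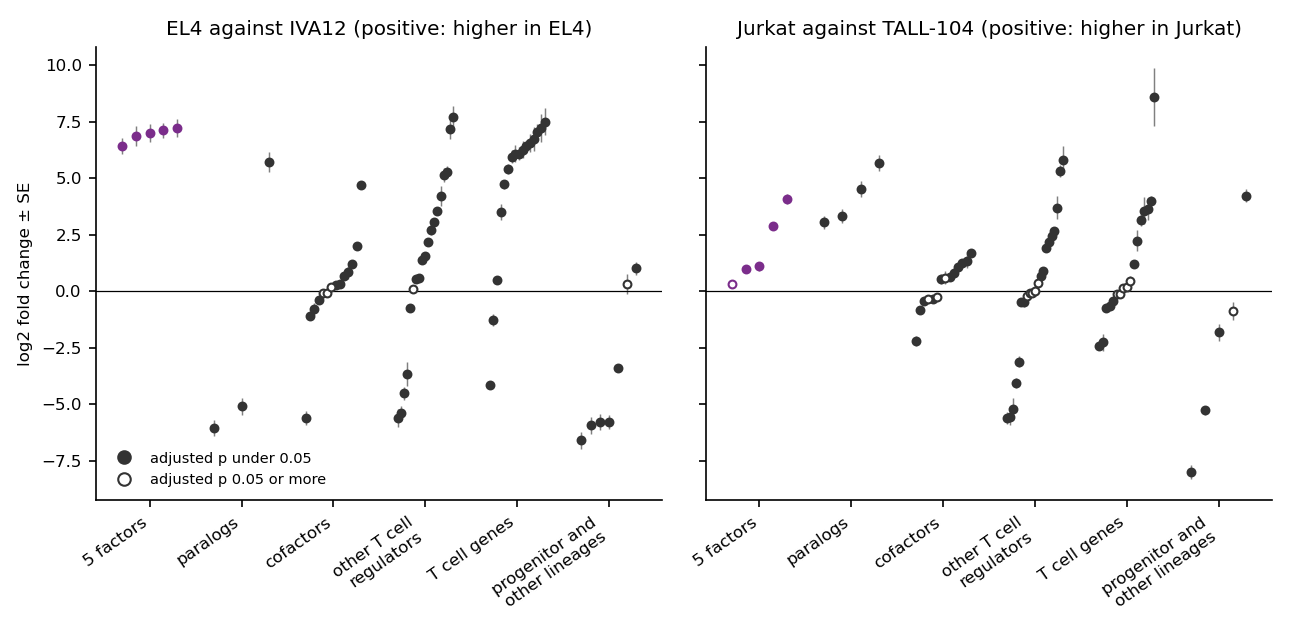
Log2 fold change ± SE of every tested gene of the 6 lists between EL4 and IVA12 (left) and between Jurkat and TALL-104 (right), 1 point per gene in order of size (the highest human T cell gene is RAG2, at 0 UMIs in TALL-104, whose fitted value is no measure of a fold); purple points are the 5 factors and open points did not pass an adjusted p of 0.05. Fitted values of genes at a median of 0 CPM in 1 line are likewise no measure of a fold. The 5 factors lie together at 6.42 to 7.23 in the mouse and are spread from 0.32 to 4.08 in the human lines.

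The genes most like each factor over the 14 sums of its species were found by Pearson's r of log2(CPM + 1), as a description. The sums share libraries and lines, and in the mouse the line difference sets nearly all of r. Nearest to Tcf7 were Sh2d2a (0.998), Slc6a13 (0.997) and Mylk4 (0.996). Gata3 was nearest to Fjx1, Bhlhb9 and Il7r, Bcl11b to Cnnm1, Camk4 and Sash3, and Sox4 to Camk4, Cpeb1 and Tox, all at 0.998. Lef1 was below the minimum of 10 CPM. In the human lines TCF7 was nearest to CD84 (0.958), LEF1 to AL589743.1 (0.986), GATA3 to CEP57 (0.859), BCL11B to INTS1 (0.970) and SOX4 to FBL (0.985). Among the factors themselves r was 0.981 to 0.997 in the mouse. In the human lines it was highest for LEF1 with SOX4 (0.884) and lowest for GATA3 with SOX4 (0.110).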

How the data were processed

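Per the labels and the study's methods, the authors thinned the reads of each library, ran Cell Ranger 3.0.2 against a joint hg19 and mm10 reference and deposited UMI counts per gene and barcode, with all barcodes kept and no pooling of libraries. The labels name 8 Chromium samples. Of the 3′ v2 kit replicate 2 was used, and replicate 1 was not analysed here. Members and gene lists were chosen with earlier results of these data known.

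Counts were summed per library and line in Python 3.11.15 (numpy 2.4.6, pandas 2.3.3). Sums were compared with edgeR 4.0.16 in R 4.3.3 (trimmed mean of M-values, filterByExpr, robust quasi-likelihood F-test, Benjamini-Hochberg, threshold 0.05), with the library as a block between lines and no block between kits. DESeq2 1.42.0 was an alternative. The fits were tested on simulated counts with the same spread for all genes and no shared preparations. That test does not measure false calls among the real libraries. A count of 0 was given an upper limit of 3 counts, which covers counting error only. Shares were thinned by exact hypergeometric expectation. Free RNA was taken from barcodes with under 100 UMIs, and its expected share in cells from UMIs of the other species and the species ratio of free RNA, which also counts mixed barcodes as free RNA.

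Named genes were the 10 members, up to 4 genes per direction, list and line comparison by fold change among those past the threshold, listed genes at 0, and the 3 genes nearest in likeness (at least 10 CPM). The comparison of 3′ v3 preparations and the alternative without cells above 3 medians were chosen after seeing the data. No doublets were removed. Some listed genes are not reported here.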

Additional observations from a re-analysis of the deposited data

Results flagged for a closer look

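Lef1 in IVA12 was flagged because 1 of the 4 3′ v3 libraries stood far from the others: replicate 3 had 0.323 CPM (18 UMIs), against 0.0816 to 0.120 CPM in replicates 1, 2 and 4. It was 1 of 20 groups of 4 libraries examined, of which chance flags about 1. Replicate 3 also had the highest share of human cells with a Lef1 UMI (0.439%).

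Gata3 and Bcl11b were flagged because their EL4 to IVA12 difference differed between 3′ v3 and 5′ v1 by the test of that difference. The change of the difference, 3′ v3 less 5′ v1, was −4.49 for Gata3 and −3.71 for Bcl11b on the log2 scale. With 5′ v1 the IVA12 level rested on 2 Gata3 UMIs and 3 Bcl11b UMIs in both libraries together, so the size of these values is not read here. The part of free RNA in this difference was not tested, and the expected shares of free RNA by kit stand beside the result in the report.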

How the results depend on the processing

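Of the fold changes recomputed, 769 kept their direction and side of the threshold, 46 newly passed, 42 no longer passed and 33 changed sign, and of the counts of genes called 151 stayed within 1.5 times and 37 did not. The causes were not tested, except that fits with fewer libraries use fewer samples. Between Jurkat and TALL-104, 8176 genes were called, 5202 without the library block and 3261 with 5′ v1 only. Against 5′ v1, 3′ v3 replicates 1 and 3 and then 2 and 4 gave 7958 and 8246 calls in EL4 (4394 with all), 7232 and 7719 in IVA12 (1047), 8499 and 9726 in Jurkat (2329) and 1173 and 2159 in TALL-104 (385; 634 without the filter, 162 with the stricter line rule). The mouse line by kit count was 3996, and 6070 with replicates 2 and 4. The human one was 173, and 283 without the filter, 84 with the stricter line rule, 564 with replicates 1 and 3 and 1210 with replicates 2 and 4. The preparation count in TALL-104 was 3540, and 473 with the stricter line rule.

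Leaving out 1 library gave 943 to 4371 calls in EL4, 1 to 1057 in IVA12, 83 to 2369 in Jurkat and 7 to 632 in TALL-104 between kits, 1501 to 4336 and 2 to 431 for the mouse and human line by kit tests, and 1631 to 3642 between preparations in TALL-104. The lowest kit counts were those without a 5′ v1 library (1436 and 943 in EL4, 83 and 186 in Jurkat, 7 and 38 in TALL-104). Folds that crossed 0 in these runs lay between −0.039 and 0.20 (Bcl11b between kits, EL4), −0.045 and 0.79 (LEF1 between kits, TALL-104), −0.76 and 0.098 (TCF7, human line by kit), and, between preparations, −0.055 and 0.0036 (Lef1, EL4), −0.085 and 0.024 (Sox4, EL4), −0.052 and 0.31 (LEF1, TALL-104) and −0.36 and 0.015 (GATA3, TALL-104).

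DESeq2 was not run for the line by kit and preparation comparisons. The sign also changed for GATA3 between the human lines with 5′ v1 only (−0.38), and between kits for Bcl11b in EL4 with replicates 1 and 3 (−0.26), Gata3 in EL4 with replicates 2 and 4 (−0.080) and LEF1 in TALL-104 without cells over 3 medians (−0.28). In the human line by kit test TCF7 gave −0.043 without the filter, −0.17 at no more than 10% mitochondrial UMIs, −0.065 from 2000 UMIs, −0.70 with the stricter line rule and −0.0068 with replicates 2 and 4, and GATA3 gave −0.33 with the stricter rule. Between preparations in EL4, total UMIs only, leaving out cells over 3 medians and the stricter rule gave 0.36, 0.032 and 0.041 for Lef1 and 0.35, 0.027 and 0.0062 for Sox4, and total UMIs only gave 0.0042 for Gata3. In TALL-104 GATA3 gave 0.14 with total UMIs only, and LEF1 −0.29 at no more than 10% mitochondrial UMIs and −0.17 from 2000 UMIs. Of these, Bcl11b between kits and, with total UMIs only, Lef1 and Sox4 in EL4 passed the threshold with the new sign.

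TALL-104 levels rest on few UMIs. Under the stricter rule, which asks for 0.5% of UMIs, the median levels of GATA3, LEF1 and SOX4 moved to 40.7, 26.0 and 0 CPM, and that of LEF1 was 36.4 CPM without cells over 3 medians. No paired analysis was possible because same-numbered libraries of different kits share no sample. The lines were paired within libraries by the library block. A block by loading target within 3′ v3, chosen after seeing the data, left the calls and directions of the factors between preparations as they were, with 7372, 8905 and 3608 genes called in EL4, Jurkat and TALL-104.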
